A study of Mus musculus with 20 samples.

Results

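The 29 genes described here encode the enzymes of cholesterol synthesis from acetyl-CoA to cholesterol (20 genes), the transcription factor SREBP2 with the proteins that hold it back or release it (6 genes), and 3 proteins of sterol transport and storage. They were taken from a list of named genes of the mevalonate and sterol pathway and of SREBP processing, were matched by NCBI GeneID, and make up 29 of the 46318 genes in the count files. All 29 were among the 13307 genes with enough counts to be tested. The cells were macrophages grown from the bone marrow of C57BL/6 female mice with 20 ng/mL of the macrophage growth factor M-CSF, so a culture model and not a tissue. Each of the 4 groups held 5 biological replicates, 20 libraries in all, and every group was collected after 24 h. The groups received DMSO, the solvent; DSHN at 50 µM, an agonist of the nuclear receptor NR0B2 by the series' account; GW3965 at 1 µM, an agonist of the oxysterol receptor LXR; or both compounds at these doses, here called the combination.

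Cholesterol synthesis runs through the mevalonate pathway to isopentenyl and farnesyl diphosphate, from there to squalene and lanosterol, and then through a series of ring and side-chain steps to cholesterol. Its genes are controlled together by SREBP2, a membrane-bound transcription factor. When sterols are scarce, SCAP escorts it from the endoplasmic reticulum to the Golgi, where the site-1 and site-2 proteases (Mbtps1 and Mbtps2) release its active part. When sterols are plentiful, INSIG proteins retain SCAP and its cargo. In macrophages this pathway runs beside LXR, which is activated by oxysterols and drives sterol export.

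Library totals lay between 16855029 and 23796561 counts. Levels are CPM, the counts of a gene divided by its library's TMM-scaled size, and group values are mean ± SD of 5 libraries. Fold changes are log2 values and carry a standard error (SE). A gene was called when its Benjamini-Hochberg adjusted p in edgeR's quasi-likelihood test, adjusted over all 13307 genes, was below 0.05. The p-values measure the spread between these cultures. In RNA from whole cultures a change per cell and a change in the share of cells cannot be told apart. Summed over 8 macrophage markers the libraries held 15971 to 19202 CPM, while 6 neutrophil markers reached at most 1.35 CPM, 4 T cell markers 0.247 CPM and 4 B cell markers 8.11 CPM. Of 5 stromal markers, Col1a1 and Col1a2 were high (1327 CPM ± 127 and 1047 CPM ± 85.0 with DMSO) while Dcn was at 0.235 CPM ± 0.173 and the endothelial gene Cdh5 at 1.85 CPM ± 0.102. The sum of the stromal list was 1739 to 2110 CPM in the combination and 2048 to 3000 CPM in the other groups, and its part in the results was not tested. The combination libraries stood apart in 2 more measures that touch the results below. Relative to each gene's mean over all 20 libraries, their log2 CPM decreased with exon length. The slopes were -0.124 to -0.0943 per unit of log2 exon length, against 0.00566 to 0.063 in the other 15 libraries. Mitochondrial RNA took 0.201% to 0.246% of the counts in the combination libraries, against 0.114% to 0.152% in the others. For comparisons with the combination, the counts of called genes, and each call that changed among the 29 genes, are therefore also given with per-library offsets that remove the trend with exon length.

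Per length of exon, Soat1, which encodes the enzyme that esterifies cholesterol for storage, stood highest with DMSO, at 94.3 CPM per kb ± 4.56, well above Msmo1 (36.4 ± 1.59) and Srebf2 (27.2 ± 0.388). The group means of Srebf2 and Fdps (26.9 ± 1.19) differed by less than 1 SD of the latter. Fdft1 (2.54 ± 0.197), Pmvk (2.83 ± 0.327) and Mvd (3.08 ± 0.284) were at the low end, with intervals of 1 SD that overlap between neighbours. Of the exon bases of Mvd, 36.16% are shared with other gene models. Reads there may not have been counted for Mvd, so its level may be too low and its place is uncertain. By this measure the synthesis enzymes spanned from 2.54 CPM per kb for Fdft1 to 36.4 for Msmo1 with DMSO. The length counts all exon bases of a gene model, 10420 for Fdft1, and which transcripts were made was not determined. Without division by length Fdft1 had 26.5 CPM ± 2.05, above Mvd (5.74 ± 0.529) and Tm7sf2 (5.13 ± 0.268). Of its exon bases 7.43% are also shared with another gene, so its place is uncertain too.

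**Figure D1:**
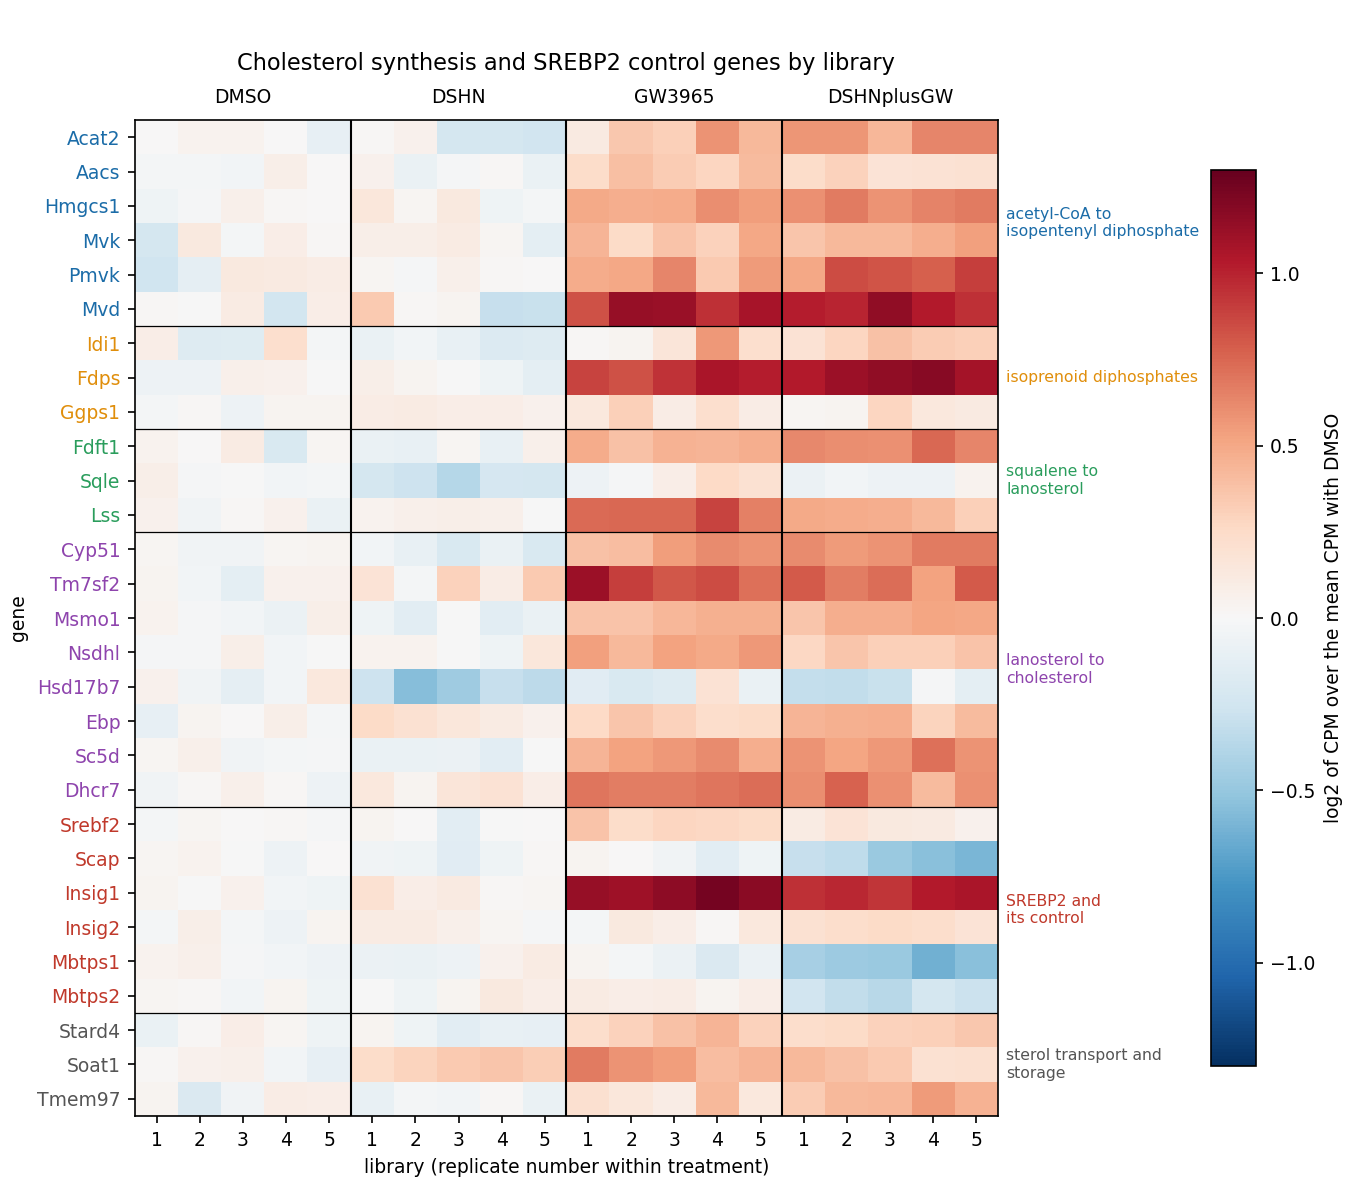
Log2 of the CPM of each of the 29 genes (rows, coloured by role) in each of the 20 libraries (columns, grouped by treatment), relative to the gene's mean with DMSO. Red is higher and blue lower; the GW3965 and DSHNplusGW blocks are red over most enzyme rows, and Scap, Mbtps1 and Mbtps2 are blue in the DSHNplusGW libraries.

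GW3965 raised 23 of the 29 genes and lowered none, or 79.3% of them, where 46.5% of all tested genes were called in either direction, 23.6% higher and 23% lower. The median log2 fold change of the 29 genes was 0.38, beside 0.008 over all tested genes. All 6 genes of the section from acetyl-CoA to isopentenyl diphosphate rose, all 3 of isoprenoid diphosphate synthesis, 2 of 3 from squalene to lanosterol, 7 of 8 from lanosterol to cholesterol, 2 of 6 of SREBP2 control and all 3 of transport and storage. None was lower at an unadjusted p below 0.05 in edgeR's test either, and DESeq2 and limma voom also called 23 higher and 0 lower. With library totals in place of TMM factors, which shifts the median of all genes to -0.048, 21 rose and 1 fell.

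In the first section, Hmgcs1 (GeneID 208715, chromosome 13, 120151887 to 120169796, GRCm39), the cytosolic HMG-CoA synthase, had 83.4, 85.6, 90.6, 87.6 and 86.8 CPM in the DMSO libraries. With GW3965 it had 121.9, 120.1, 121.6, 131.9 and 126.9 CPM. The groups did not overlap, and the log2 fold change was 0.52 (SE 0.04, adjusted p = 4.75e-11). Mvd, which makes isopentenyl diphosphate, stood at 5.74 CPM ± 0.529 with DMSO and at 11.7 CPM ± 1.03 with GW3965, a log2 fold change of 1.02 (SE 0.10). Of its exon bases, 28.7% and 7.51% lie within 2 gene models on the other strand that had 45 and 4 counts in all libraries together, set against 3441 for Mvd. These counts do not show how many reads in the shared bases were left uncounted. Pmvk, the phosphomevalonate kinase, rose by 0.51 (SE 0.08), Mvk, the mevalonate kinase, by 0.38 (SE 0.07), Acat2, the cytosolic thiolase, by 0.37 (SE 0.07), and Aacs, which activates acetoacetate, by 0.33 (SE 0.04). None of these 6 genes had a DMSO library within the range of the GW3965 libraries. How many of all tested genes had groups without overlap was not counted.

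Fdps (GeneID 110196, chromosome 3, 89000895 to 89009274), the farnesyl diphosphate synthase, had 37.7, 37.6, 41.2, 41.0 and 39.1 CPM with DMSO. With GW3965 it had 72.2, 69.8, 75.6, 82.3 and 79.6 CPM (log2 fold change 0.95, SE 0.05, adjusted p = 9.64e-15). The lowest GW3965 library lay far above the highest DMSO library. Its neighbours in the pathway moved less. Ggps1, which makes geranylgeranyl diphosphate, rose by 0.17 (SE 0.05). Idi1, the isopentenyl diphosphate isomerase, was called at 0.22 (SE 0.09, adjusted p = 0.0445) with overlapping groups of 9.14 to 12.0 CPM and 10.3 to 15.1 CPM. Its call was lost in 16 of 20 fits that left out 1 library, with adjusted p up to 0.276, and was kept only without DMSO replicate 1 or 4 or GW3965 replicate 1 or 2. With library totals, Ggps1 (adjusted p = 0.0596) and Idi1 (adjusted p = 0.151) were not called.

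Lss (GeneID 16987, chromosome 10, 76367303 to 76392973), which cyclises the squalene epoxide to lanosterol, had 24.5, 22.9, 23.9, 24.5 and 22.3 CPM with DMSO. With GW3965 it had 39.4, 39.7, 39.7, 43.3 and 37.2 CPM (log2 fold change 0.76, SE 0.05, adjusted p = 5.85e-13), with no overlap. Fdft1, the squalene synthase, rose by 0.44 (SE 0.05) from 26.5 CPM ± 2.05 to 36.0 CPM ± 0.982. This value is uncertain because 7.43% of the exon bases of Fdft1 overlap Ctsb on the other strand, a gene with 4292064 counts against 12817 for Fdft1, and no strand option stands in the counting commands. The same limit applies to Fdft1 in every comparison below. Sqle (GeneID 20775, chromosome 15, 59186941 to 59203042), the squalene epoxidase, stands between Fdft1 and Lss in the pathway and was not called. It had 61.5, 57.9, 58.1, 57.0 and 57.6 CPM with DMSO and 55.7, 57.6, 62.0, 69.8 and 67.1 CPM with GW3965 (log2 fold change 0.10, SE 0.05, adjusted p = 0.113). The groups overlapped, GW3965 replicate 1 lay below every DMSO library, and without it Sqle was called (adjusted p = 0.0346).

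Between lanosterol and cholesterol, the genes that rose most were the sterol reductase genes Tm7sf2 (log2 fold change 0.88, SE 0.09) and Dhcr7 (0.69, SE 0.05), the latter being the enzyme of the last step of one branch. Sc5d, the lathosterol oxidase, had 0.52 (SE 0.04), Cyp51, the lanosterol demethylase, 0.51 (SE 0.05), Nsdhl, of the removal of the carbon 4 methyl groups, 0.51 (SE 0.04), and Msmo1, of the same steps, 0.42 (SE 0.04). Ebp, the sterol isomerase, rose by 0.28 (SE 0.05). These 7 genes all had groups without overlap, again with no count over all tested genes to set beside it. Hsd17b7 (GeneID 15490, chromosome 1, 169777104 to 169796913), the ketosteroid reductase that acts with Nsdhl and Msmo1, had 23.3, 21.7, 20.7, 21.9 and 24.8 CPM with DMSO and 20.3, 19.6, 20.0, 25.7 and 21.2 CPM with GW3965. It was not called (log2 fold change -0.07, SE 0.07, adjusted p = 0.463), and its groups overlapped.

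Of the control genes, Insig1 (GeneID 231070, chromosome 5, 28276410 to 28283660) had 61.4, 59.8, 62.3, 58.6 and 57.7 CPM with DMSO. With GW3965 it had 131.8, 128.6, 134.2, 142.0 and 135.2 CPM (log2 fold change 1.16, SE 0.04, adjusted p = 1.23e-18). Every GW3965 library held over 128 CPM, against at most 62.3 with DMSO. Its relative Insig2 (chromosome 1, 121232082 to 121260391) had 38.0, 40.9, 38.1, 36.9 and 39.6 CPM with DMSO and 38.1, 42.3, 41.0, 39.2 and 42.5 CPM with GW3965. The groups overlapped and Insig2 was not called (0.07, SE 0.04, adjusted p = 0.16). Srebf2 itself (GeneID 20788, chromosome 15, 82031470 to 82089580) had 149.5, 154.7, 152.8, 154.2 and 151.2 CPM with DMSO and 196.9, 179.5, 184.5, 184.1 and 181.7 CPM with GW3965 (log2 fold change 0.28, SE 0.03, adjusted p = 1.82e-07), with no overlap. The escort and the proteases were not called, with -0.04 (SE 0.05) for Scap, -0.06 (SE 0.05) for Mbtps1 and 0.08 (SE 0.04, adjusted p = 0.0701) for Mbtps2. With the exon length correction Mbtps2 was called at 0.10 (adjusted p = 0.0134), and with library totals in place of TMM factors Mbtps1 was called at -0.12 (adjusted p = 0.0154). Among transport and storage genes, Soat1 rose by 0.53 (SE 0.05), Stard4, which moves cholesterol between membranes, by 0.33 (SE 0.04), and Tmem97, also known as the sigma-2 receptor, by 0.21 (SE 0.06, overlapping groups).

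**Figure D2:**
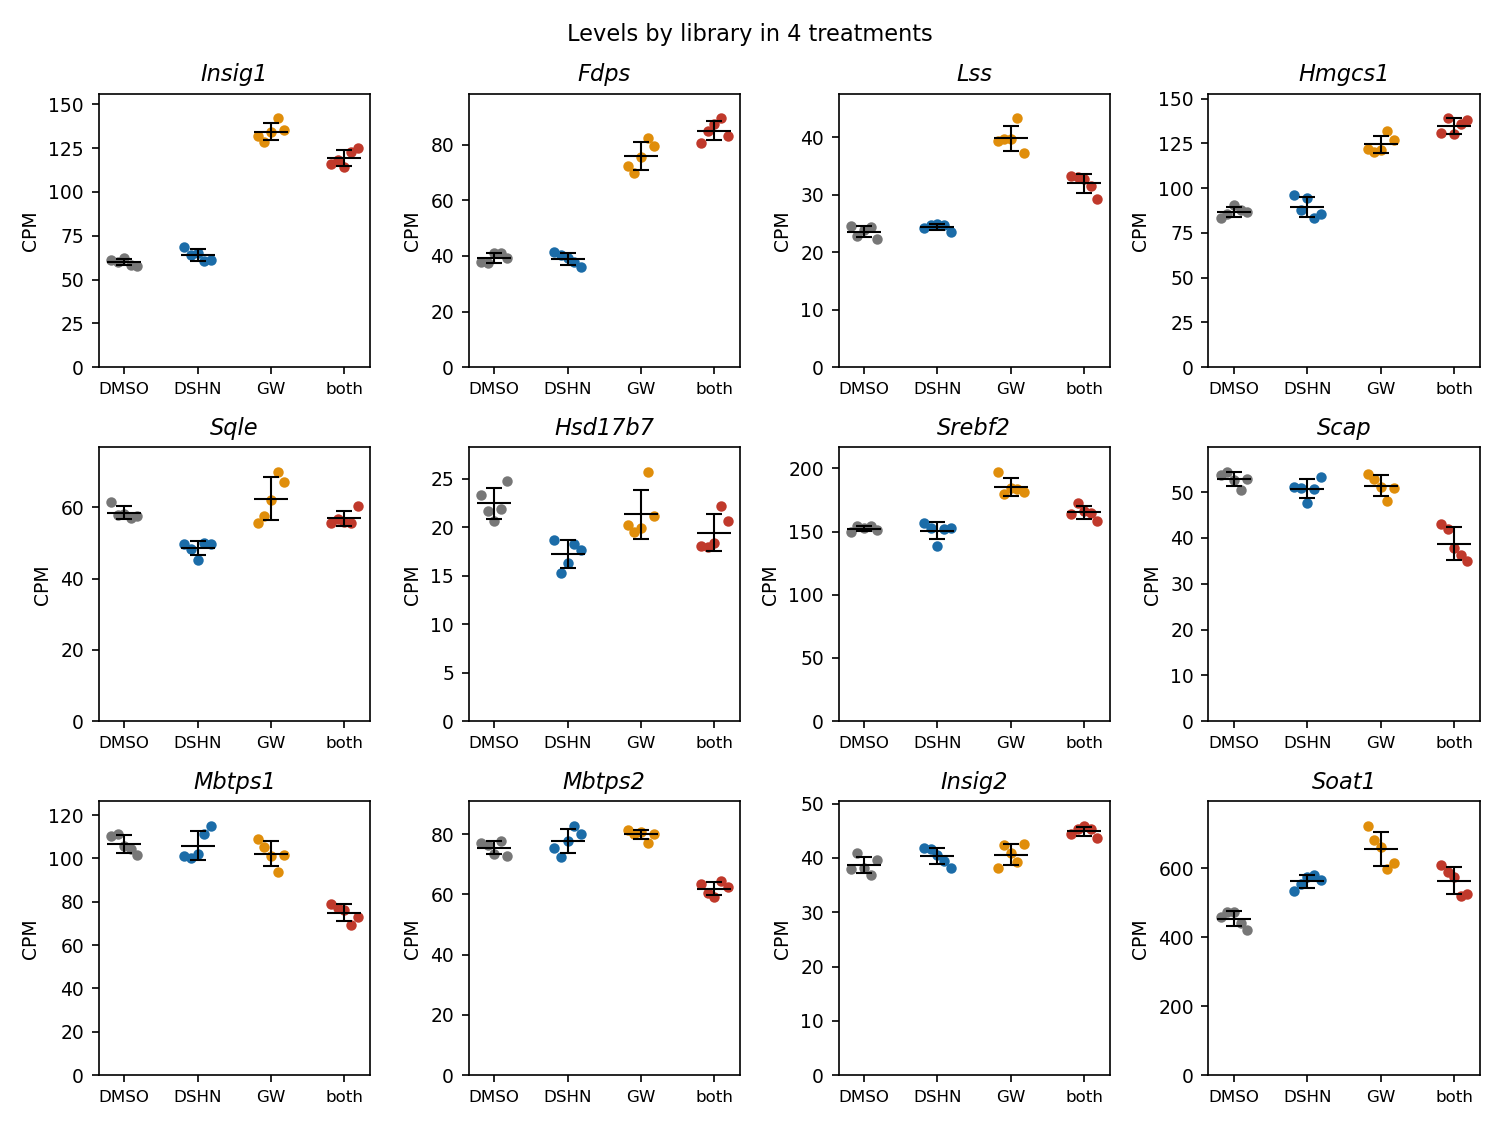
CPM of 12 of the genes in every library (points, 5 per treatment; GW is GW3965 and both is DSHNplusGW), with the mean (bar) and SD (whiskers); each vertical axis starts at 0. Insig1, Fdps and Lss are higher in all GW3965 and combination libraries than in any other, Sqle and Hsd17b7 are lower with DSHN, and Scap, Mbtps1 and Mbtps2 are lowest in the combination.

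Because these genes moved together, the promoters were searched for 2 motifs of SREBP-controlled genes. RefSeq promoter windows of the GRCm38.p6 build, 300 bases long with 250 before the start, were found for 25 of the 29 genes and not for Fdft1, Fdps, Sqle and Stard4. The first motif was the sterol regulatory element, ATCAC directly followed by CCCAC, with at most 1 mismatch, and the second the CCAAT box, CCAAT with no mismatch, which NF-Y binds; both strands were searched, and the motifs do not overlap each other in the windows shown. The element was found in 3 of 25 genes (12%), Hmgcs1, Nsdhl and Srebf2, and in 2.22% of all 27025 genes with a window. The CCAAT box was found in 20 of 25 genes (80%) and in 41.1% of all genes. The 5 without one were Aacs, Acat2, Mbtps1, Mbtps2 and Scap. The shares over all genes were not limited to the 13307 genes tested here, whereas the members had all passed that filter. A match is only a description of these letters. The 250 bases before the start are printed for the 3 genes with the element, for Insig1, which had the smallest adjusted p with GW3965, and for Mbtps1, which has neither motif. They lie at chr13:119690101-119690350 (plus strand), chr15:82147019-82147268 (plus), chrX:72918271-72918520 (plus), chr5:28071162-28071411 (plus) and chr8:119558762-119559011 (minus), are written 5′ to 3′ along the gene, and have matches to either motif, in either orientation (ATTGG is CCAAT on the other strand), in capitals.
Hmgcs1: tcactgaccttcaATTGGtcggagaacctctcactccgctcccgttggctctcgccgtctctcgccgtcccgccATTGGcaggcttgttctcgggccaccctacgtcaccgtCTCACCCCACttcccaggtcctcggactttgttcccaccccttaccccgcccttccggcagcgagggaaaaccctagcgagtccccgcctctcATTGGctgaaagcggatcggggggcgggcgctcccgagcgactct
Srebf2: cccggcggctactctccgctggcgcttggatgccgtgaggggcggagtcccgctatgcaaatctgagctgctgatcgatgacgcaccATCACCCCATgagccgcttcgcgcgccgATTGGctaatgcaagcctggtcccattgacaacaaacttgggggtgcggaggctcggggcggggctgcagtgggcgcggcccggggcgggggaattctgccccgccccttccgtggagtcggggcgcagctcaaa
Nsdhl: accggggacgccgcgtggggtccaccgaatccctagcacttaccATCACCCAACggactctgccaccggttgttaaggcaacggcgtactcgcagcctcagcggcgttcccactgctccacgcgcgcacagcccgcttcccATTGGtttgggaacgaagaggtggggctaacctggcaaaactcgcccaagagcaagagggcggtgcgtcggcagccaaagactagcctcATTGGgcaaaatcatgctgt
Insig1: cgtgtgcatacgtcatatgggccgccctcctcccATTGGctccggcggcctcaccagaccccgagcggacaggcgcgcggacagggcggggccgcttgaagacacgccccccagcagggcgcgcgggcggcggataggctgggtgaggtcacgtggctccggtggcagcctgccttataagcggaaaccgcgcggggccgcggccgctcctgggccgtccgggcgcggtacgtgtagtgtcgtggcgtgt
Mbtps1: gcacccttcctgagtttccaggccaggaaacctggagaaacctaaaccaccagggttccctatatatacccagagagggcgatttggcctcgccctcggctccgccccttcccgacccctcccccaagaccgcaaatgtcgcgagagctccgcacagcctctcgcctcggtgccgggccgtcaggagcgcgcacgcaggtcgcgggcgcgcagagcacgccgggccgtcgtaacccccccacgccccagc
The element starts at position -138 in Hmgcs1 (CTCACCCCAC), -163 in Srebf2 (ATCACCCCAT) and -206 in Nsdhl (ATCACCCAAC), counted from -1 at the base before the start. Within these 250 bases Hmgcs1 holds 3 CCAAT boxes, Nsdhl 2, and Srebf2 and Insig1 1 each. Hmgcs1, Nsdhl, Srebf2 and Insig1 rose with GW3965, and Mbtps1 was not called there. Aacs (0.33) and Acat2 (0.37), with neither motif, also rose, while Hsd17b7 and Insig2, with 3 CCAAT boxes each in their windows, were not called.

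DSHN alone changed 4 of the 29 genes, 13.8%, which is below the 28.9% called among all tested genes (14.1% higher and 14.8% lower). The median of the 29 was -0.01, beside 0.002 over all tested genes. By edgeR's test, and by DESeq2 and limma voom, none of the 6 control genes and none of the 9 genes from acetyl-CoA through the isoprenoid diphosphates was called. At an unadjusted p below 0.05 there were 1 and 0 in edgeR's test.

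Soat1 (GeneID 20652, chromosome 1, 156255678 to 156301898) rose. It had 457.5, 472.3, 473.4, 440.9 and 422.0 CPM with DMSO and 533.7, 555.0, 574.4, 581.6 and 566.2 CPM with DSHN, with no overlap (log2 fold change 0.31, SE 0.05, adjusted p = 2.38e-05). Ebp rose by 0.16 (SE 0.05, adjusted p = 0.0111), with groups that overlapped. Sqle fell, with 49.8, 48.3, 45.2, 50.0 and 49.8 CPM in the DSHN libraries, all below the lowest DMSO library of 57.0 CPM (log2 fold change -0.27, SE 0.05, adjusted p = 0.000237). Hsd17b7 fell as well, with 18.7, 15.3, 16.3, 18.3 and 17.7 CPM against 20.7 CPM in the lowest DMSO library (log2 fold change -0.38, SE 0.08, adjusted p = 0.000467). Sqle and Hsd17b7 are also the only 2 of the 20 enzyme genes that were not called with GW3965. Both compounds were compared with the same 5 DMSO libraries, so the 2 observations are not independent. The 4 calls with DSHN held without any 1 library, with adjusted p up to 0.046. Cyp51, at -0.12 (SE 0.05, adjusted p = 0.0557), was called in 8 of 20 fits without 1 library, namely without DMSO replicate 2 or 3, DSHN replicate 1, combination replicate 2 or 4, or GW3965 replicate 1, 2 or 4. Dhcr7 (0.12, adjusted p = 0.0763) was called without combination replicate 4 and with the length correction. The control genes had log2 fold changes of -0.06 (Scap) to 0.09 (Insig1, adjusted p = 0.082). With length and genomic span offsets Insig1 was called, at 0.10 (adjusted p = 0.0327). Insig1 had 68.7, 63.9, 65.1, 60.8 and 61.2 CPM and Srebf2 156.7, 152.8, 138.9, 151.7 and 153.2 CPM with DSHN, both overlapping DMSO. For Insig2 the DSHN libraries held 41.8, 41.6, 40.5, 39.5 and 38.2 CPM, and for Scap 51.2, 50.9, 47.5, 50.7 and 53.3 CPM, which overlapped DMSO too.

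The effect of GW3965 in the presence of DSHN was read from a separate comparison. This one, the combination against DSHN alone, shares no library with GW3965 against DMSO. It called 23 of 29 genes higher and 3 lower (89.7%, where 58.1% of all tested genes were called, 28.6% higher and 29.5% lower), with a median of 0.40. Higher in both comparisons were 21 genes, which is 21 of 23 in each, a repeat that was not counted over all tested genes. With the length correction 24 were higher and 3 lower in the presence of DSHN, with 3 changed calls: Ggps1 and Hsd17b7 were gained, and Ebp, one of the 21, was lost (0.27, then 0.08 at adjusted p = 0.104). Fdps rose by 1.12 (SE 0.05), Mvd by 1.04 (SE 0.10), Insig1 by 0.90 (SE 0.04), Pmvk by 0.75 (SE 0.08) and Hmgcs1 by 0.59 (SE 0.04). Cyp51 had 93.5, 89.5, 91.7, 97.1 and 97.4 CPM in the combination, compared to 59.6, 57.1, 53.3, 57.6 and 53.1 CPM under DSHN (log2 fold change 0.74, SE 0.05, adjusted p = 1.43e-12), with no overlap. It had 62.1, 59.1, 59.3, 62.0 and 62.5 CPM with DMSO and 79.2, 80.3, 89.0, 93.5 and 91.6 CPM with GW3965. Sqle, not called with GW3965 alone, rose by 0.23 (SE 0.05) when DSHN was present, to 55.5, 56.8, 55.8, 55.6 and 60.5 CPM. Against DMSO the combination had -0.04 (SE 0.05, adjusted p = 0.494) for Sqle, not called and with overlapping groups. Insig2 rose by 0.16 (SE 0.04). Ggps1 (0.03) and Soat1 (0.00) were called with GW3965 alone and not here. Ggps1 was called at 0.24 after the length correction (adjusted p = 0.000366), and Soat1 was called at 0.14 (adjusted p = 0.0142) where genomic span was added to the offsets. Hsd17b7 had 0.17 (SE 0.08, adjusted p = 0.0686). It was called at 0.32 with the length correction (adjusted p = 0.00157) and, without the correction, in fits without DSHN replicate 1, combination replicate 1 or 2 or GW3965 replicate 4 (adjusted p of 0.0309 to 0.044). The 3 genes that fell were Mbtps1, Mbtps2 and Scap.

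**Figure D3:**
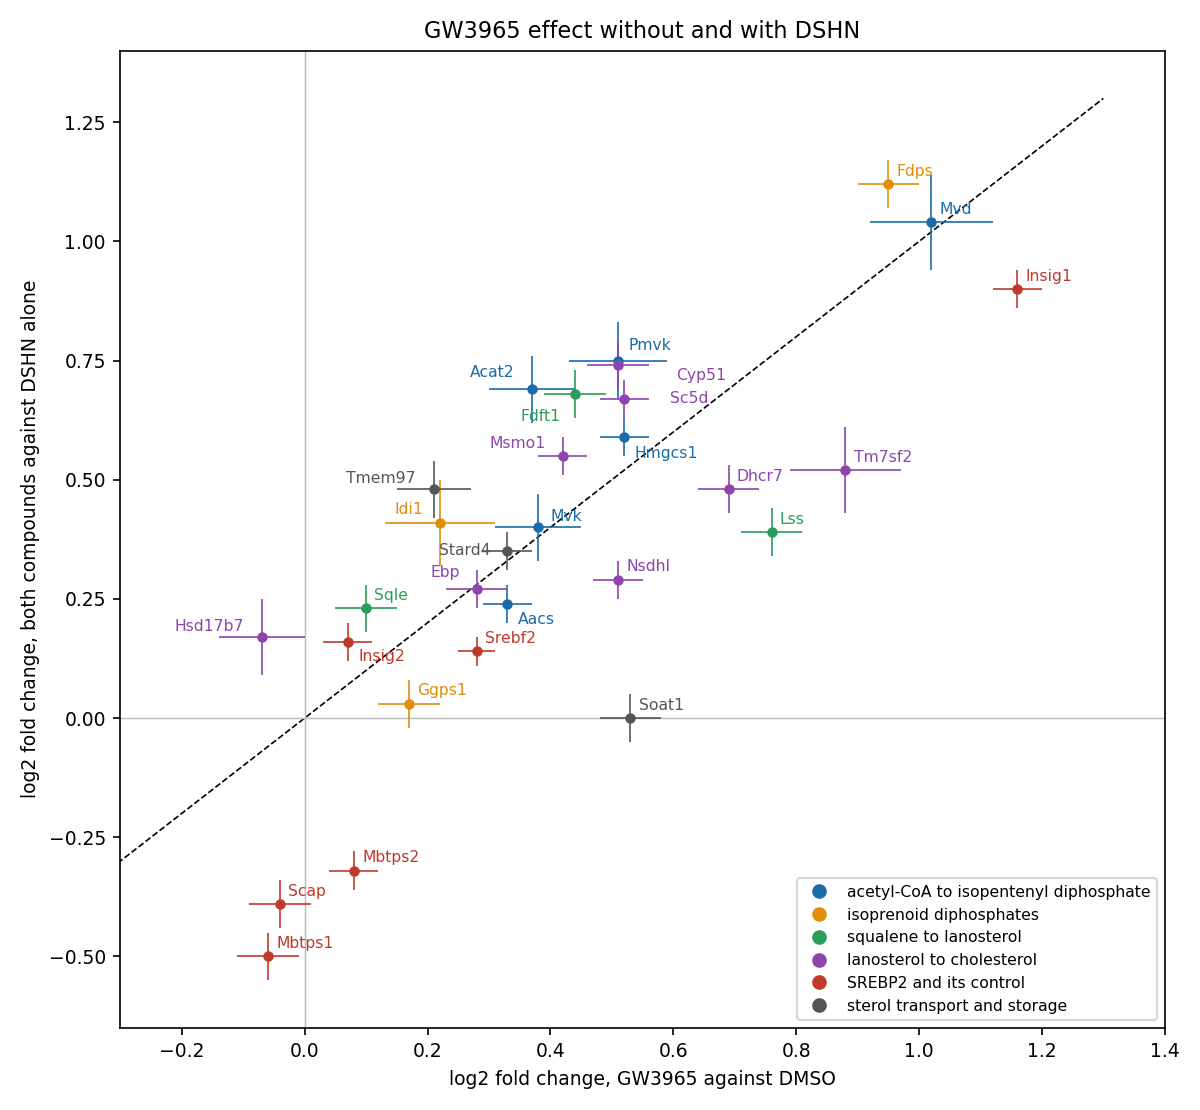
Log2 fold change of each gene with GW3965 against DMSO (horizontal) and with both compounds against DSHN alone (vertical), with SE bars and colour by role; the dashed line marks equal effects. Most enzymes lie in the upper right on either side of the line, Soat1 lies below it at 0.53 and 0.00, and Mbtps1, Mbtps2 and Scap lie near 0 on the horizontal axis and between -0.50 and -0.32 on the vertical.

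The combination against DMSO called 24 of the 29 genes higher and 4 lower (96.6%, where 64.8% of all tested genes were called, 31.9% higher and 32.9% lower), at a median of 0.44. With the length correction 24 were higher and 3 lower, and Hsd17b7 was the 1 call that changed. Of the 20 enzymes 18 were higher, Hsd17b7 was lower and Sqle was not called. Fdps was at 80.6, 85.0, 87.3, 89.4 and 83.0 CPM, above every DMSO library (log2 fold change 1.11, SE 0.05, adjusted p = 3.45e-16). Insig1 was at 115.7, 118.5, 114.2, 122.7 and 125.3 CPM (0.99, SE 0.04, adjusted p = 6.21e-17). Hmgcs1 was at 130.6, 139.0, 130.0, 135.9 and 138.3 CPM (0.63, SE 0.04, adjusted p = 4.49e-13), and no library of these 3 genes overlapped DMSO. Fdft1 had 0.64, Sc5d 0.59 and Dhcr7 0.60 (SE 0.04 to 0.05). Hsd17b7 was at 18.1, 17.96, 18.4, 22.3 and 20.6 CPM (-0.21, SE 0.08, adjusted p = 0.0185). That call was lost with the length correction (adjusted p = 0.667) and without DMSO replicate 5 or combination replicate 1 or 2 (adjusted p up to 0.058). Ggps1 (0.12) lost its call without DMSO replicate 1 or 3 or combination replicate 3 or 4 (adjusted p up to 0.134).

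The genes that release SREBP2 were lower in the combination than in every other group. Mbtps1 (GeneID 56453, chromosome 8, 120234890 to 120285603), the site-1 protease, had 110.2, 111.4, 105.7, 104.4 and 101.8 CPM with DMSO, 101.3, 100.3, 102.0, 111.2 and 114.8 CPM under DSHN, and 109.2, 105.2, 101.1, 93.8 and 101.4 CPM with GW3965. In the combination it had 79.1, 77.1, 76.3, 69.4 and 73.1 CPM, below all 15 other libraries. Mbtps2 (chromosome X, 156330818 to 156381711), the site-2 protease, had 77.1, 76.6, 73.5, 77.7 and 72.9 CPM with DMSO, 75.4, 72.5, 77.6, 82.6 and 80.2 CPM under DSHN, and 81.6, 79.9, 80.8, 77.3 and 80.1 CPM with GW3965. In the combination it had 63.6, 60.6, 59.0, 64.3 and 62.4 CPM, again below all others. Scap (chromosome 9, 110162356 to 110214017) had 53.8, 54.3, 52.5, 50.4 and 52.9 CPM with DMSO and 54.0, 52.8, 51.0, 48.0 and 50.9 CPM with GW3965. In the combination it had 43.0, 42.0, 37.7, 36.3 and 35.0 CPM, without overlap with any group.

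DSHN added to GW3965, the comparison of the combination with GW3965 alone, called 9 of the 29 genes higher and 10 lower. That is 65.5%, where 57.8% of all tested genes were called, 28.3% higher and 29.5% lower; with library totals in place of TMM factors the numbers over all genes were 4637 higher and 3295 lower, against 3760 and 3928 with TMM. With the length correction 7 of the 29 were higher and 10 lower, and 8 of the 29 calls differed. Mbtps1 fell by 0.44 (SE 0.05, adjusted p = 8.99e-09), Scap by 0.40 (SE 0.05, adjusted p = 1.64e-07) and Mbtps2 by 0.37 (SE 0.04, adjusted p = 5.87e-09). With the length correction their log2 fold changes were -0.35, -0.31 and -0.27, all still called. Insig1 fell by 0.17 (SE 0.04), or by 0.24 with the correction, and its combination libraries all lay below the lowest GW3965 library. Srebf2, at 164.1, 172.8, 166.7, 164.9 and 158.6 CPM, fell by 0.16 (SE 0.03, adjusted p = 0.000199) without overlap, but had -0.02 with the correction (adjusted p = 0.685). Insig2, at 44.3, 45.4, 45.8, 45.4 and 43.7 CPM, rose by 0.14 (SE 0.04), without overlap, and by 0.35 with the correction. So 5 of the 6 control genes were lower before the correction and 4 after it.

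Among the enzymes, Lss, at 33.3, 33.1, 32.7, 31.6 and 29.3 CPM, lay below all GW3965 libraries and above all DMSO libraries. It fell by 0.32 (SE 0.05, adjusted p = 1.34e-06), or by 0.12 with the correction. Nsdhl fell by 0.19 (0.31 with the correction), and Soat1, at 608.2, 588.9, 575.5, 519.5 and 525.0 CPM, fell by 0.22 (0.12 with the correction) with overlapping groups. Higher before and after the correction were Pmvk (0.27 in both), Fdft1 (0.20 and 0.46), Cyp51 (0.11 and 0.18) and Hmgcs1 (0.11 and 0.17). The Fdft1 values carry the limit of its overlap with Ctsb. Fdps (0.16), Tmem97 (0.23), Ebp (0.14) and Acat2 (0.20) were called higher and lost the call with the correction, where the first 3 had -0.06, -0.02 and -0.04. Ggps1 had -0.05, not called, and 0.16, called, with it. Sc5d (0.07, then 0.18) and Tm7sf2 (-0.17, then -0.40) were also called only with the correction. Sqle (-0.14), Aacs (-0.11), Cyp51 and Acat2 also lost their calls without some single library. For Sqle these were combination replicate 1, 3 or 4 or GW3965 replicate 4 or 5, and for Aacs combination replicate 3, 4 or 5 or GW3965 replicate 2, 3 or 5. For Cyp51 they were combination replicate 4 or 5 or GW3965 replicate 1 or 2, and for Acat2 GW3965 replicate 1 (adjusted p up to 0.132 over these 4 genes). Calls were gained by Dhcr7 without combination replicate 2, by Idi1 and Sc5d without GW3965 replicate 4, and by Tm7sf2 without GW3965 replicate 5. Over the 29 genes the correlation of the log2 fold change with log2 exon length was r = -0.27 before the correction and 0.46 after it, a description across genes of the same libraries.

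**Figure D4:**
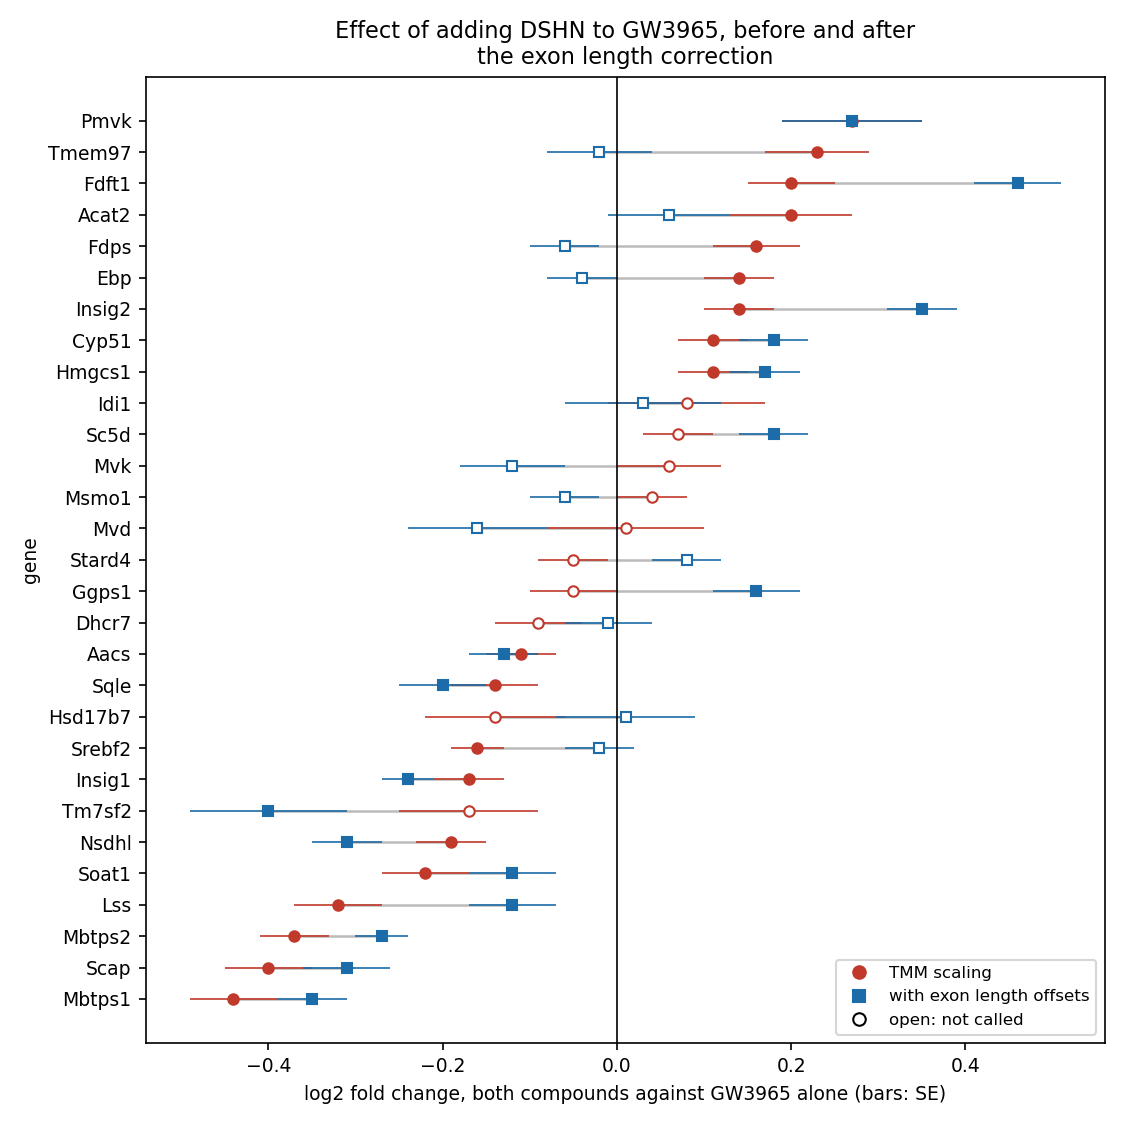
Log2 fold change of each gene in the combination against GW3965 alone, with TMM scaling (circles) and with exon length offsets (squares), SE bars, and open symbols where not called; genes are ordered by the first value. Mbtps1, Scap and Mbtps2 have the lowest circles, their squares are filled and below 0, and Fdps, Tmem97 and Ebp cross 0.

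The interaction tests the difference directly: it takes the effect of DSHN without GW3965 from its effect in the presence of GW3965, which equals the same difference for GW3965 with and without DSHN. It was called for 17 of the 29 genes, 7 higher and 10 lower (58.6%, where 50.2% of all tested genes were called, 23.7% higher and 26.5% lower). DESeq2 called 6 higher and 10 lower, and limma voom 5 and 10. With library totals in place of TMM factors 11 were higher, and over all genes 4069 were higher and 2853 lower against 3154 and 3527. With the length correction 5 were higher and 9 lower, and 9 of the 29 calls differed. Soat1 had -0.53 (SE 0.07, adjusted p = 6.98e-07) and -0.45 with the correction. Each compound alone raised Soat1, by 0.31 and 0.53, and the combination stood 0.31 above DMSO. Mbtps1 had -0.43 (SE 0.06), Mbtps2 -0.41 (SE 0.05) and Scap -0.34 (SE 0.07), and -0.35, -0.32 and -0.27 with the correction. Insig1 had -0.27 (SE 0.05, adjusted p = 0.000237) and -0.34 with the correction. Lss (-0.37), Tm7sf2 (-0.36) and Nsdhl (-0.22) were also lower in both versions. Fdft1 (0.23, subject to its overlap with Ctsb), Cyp51 (0.23) and Sc5d (0.14) were higher in both. Sc5d was at adjusted p = 0.0499 before the correction and lost its call in 7 of 20 fits without 1 library. The 7 fits left out DMSO replicate 1, 2 or 5, DSHN replicate 4, combination replicate 4 or GW3965 replicate 1 or 5. It was also lost with DESeq2 (adjusted p = 0.0628), limma voom (0.0533), DESeq2's size factors (0.051) and no filter (0.228). Acat2 (0.32), Tmem97 (0.27), Fdps (0.17), Msmo1 (0.13), Dhcr7 (-0.21) and Srebf2 (-0.15) were called before the correction only, and Insig2 (0.27), Hsd17b7 (0.37) and Ebp (-0.18) after it only. Msmo1 lost its call with limma voom (adjusted p = 0.054), with no filter (0.219), and without DMSO replicate 1 or 5, DSHN replicate 2 or 4, combination replicate 4 or 5 or GW3965 replicate 1 or 2. Fdps lost it without DMSO replicate 3, DSHN replicate 5 or GW3965 replicate 2, and Srebf2 without DSHN replicate 1, combination replicate 5 or GW3965 replicate 1. Calls were gained by Hsd17b7 without DMSO replicate 3, DSHN replicate 1, combination replicate 1 or 2 or GW3965 replicate 4, by Pmvk without DMSO replicate 1, combination replicate 1 or GW3965 replicate 3, by Ggps1 without combination replicate 3, and by Idi1 and Sqle without GW3965 replicate 4. Over the 20 enzymes the median interaction was 0.10, while that of the 6 control genes was -0.31, beside 0.005 over all tested genes. After the length correction these medians were 0.04 and -0.30.

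Other genes around the pathway were read from 4 lists. Of 18 genes of lipoprotein uptake and sterol trafficking, GW3965 raised 12 and lowered 1, where 46.5% of all tested genes were called. Gramd1b, which carries cholesterol from the plasma membrane to the endoplasmic reticulum, rose by 1.32 (SE 0.05) and Scarb1, a lipoprotein receptor, by 0.54 (SE 0.03). The combination against GW3965 had 2 of them higher and 10 lower (3 and 9 with the length correction), where 57.8% of all tested genes were called. Lrp1, an endocytic receptor, stood at 2241 CPM ± 103 with DMSO, at 2893 CPM ± 249.8 with GW3965 and at 1284 CPM ± 48.1 in the combination. Its log2 fold change between the last 2 groups was -1.17 (SE 0.06), or -0.90 with the length correction. Gramd1b fell there by 0.72 (0.51 with the correction). DSHN alone raised 6 of the 18 and lowered 1, with 28.9% of all tested genes called, among them Npc2, which binds cholesterol in the lysosome (0.25, SE 0.04), and Stard5 (0.26, SE 0.04). The interaction was higher for 1 and lower for 10 (1 and 11 with the correction), where 50.2% of all tested genes were called, with Lrp1 at -1.09 (SE 0.09) and Gramd1b at -0.74 (SE 0.07).

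Of 15 enzyme partners and degradation factors, GW3965 raised 6 and lowered 2, a share near the 46.5% called among all tested genes. Acss2, which makes acetyl-CoA from acetate, rose by 1.18 (SE 0.09) and Rnf145, a sterol-regulated ubiquitin ligase, by 0.64 (SE 0.04). DSHN alone raised only Acss2 among them (0.60, SE 0.09) and lowered 3, among them Erlin1 (-0.17, SE 0.04), a share near the 28.9% of all tested genes. Against GW3965 the combination had 5 higher and 6 lower (4 and 6 with the length correction), where 57.8% of all tested genes were called, with Acly, which makes acetyl-CoA from citrate, at -0.55 (SE 0.04) and Por, the electron donor of Cyp51 and Sqle, at -0.49 (SE 0.05). With the correction these were -0.32 and -0.52. Of 14 genes of isoprenoid use, GW3965 raised 2 and lowered 3, a smaller share than the 46.5% of all tested genes, with Pdss1, of ubiquinone synthesis, at -0.79 (SE 0.15) and Fnta, which acts in farnesylation, at 0.14 (SE 0.04), and DSHN alone changed none by edgeR's test, DESeq2 or limma voom. In edgeR's test 3 were lower at an unadjusted p below 0.05, and the smallest adjusted p was 0.0792, for Coq2. Against GW3965 the combination had 5 higher and 2 lower, or 5 and 4 with the length correction, where 57.8% of all tested genes were called. Pggt1b, which acts in geranylgeranylation, had -0.65 (SE 0.06) and Chm, the Rab escort protein, -0.33 (SE 0.04), or -0.39 and -0.19 with the correction.

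Of 6 genes of oxysterol synthesis and clearance 3 had enough counts. Ch25h, which makes 25-hydroxycholesterol, was low and fell with each treatment. Its libraries spanned 2.89 to 5.27 CPM under DMSO, 1.18 to 1.996 CPM under DSHN, 0.337 to 1.18 CPM under GW3965 and 0.912 to 1.61 CPM in the combination. The log2 fold changes against DMSO were -1.47 (SE 0.20), -2.28 (SE 0.23) and -1.68 (SE 0.21). Cyp27a1, which makes 27-hydroxycholesterol, rose with each treatment. Its mean was 10.8 CPM ± 1.38 under DMSO, 16.9 ± 1.81 under DSHN, 23.1 ± 3.62 under GW3965 and 19.3 ± 2.09 in the combination, and the log2 fold changes against DMSO were 0.64 (SE 0.11), 1.08 (SE 0.10) and 0.83 (SE 0.10). Neither gene's DMSO libraries overlapped those of any treatment. The interaction was -0.89 (SE 0.14) for Cyp27a1 and 2.07 (SE 0.35) for Ch25h.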

How the data were processed

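RNA of 20 cultures was made into libraries with a stranded Kapa mRNA kit, per the labels' protocols. The submitters' processing notes name STAR, Subread and the build GRCm39. Reads were counted per RefSeq gene by featureCounts 2.0.0, per the file headers, and each of the 20 deposited files holds raw counts of 1 library. No option for strand, multi-mapped reads or reads over several genes stands in the headers' commands, so reads of either strand count for a gene.

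Of 46318 genes, 44749 were named from a RefSeq table, and unnamed models held 0.474% of all counts. The 13307 genes that passed edgeR's filterByExpr were scaled by TMM. In edgeR 4.0.16 under R 4.3.3 a quasi-likelihood model took 1 mean for each of the 4 groups. Its biological coefficient of variation was 0.0536, and chi-square per degree of freedom between replicates was 2.37 to 12.3, so no pair was 1 library deposited again. There were 6 contrasts: the 3 treatments set against DMSO, the combination set against either compound, and the interaction. Benjamini-Hochberg adjustment ran over all genes tested in a contrast, with calls at 0.05. The length correction fits, in each library, a smooth curve (spline, 5 df) of log2 exon length and uses it as an offset.

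The genes and lists were chosen with earlier results of these data known. Any of the 29 genes could be named. Values in every library are given for the 3 with the smallest adjusted p per contrast and for Srebf2, Insig1, Insig2 and Scap, and from each other pathway list up to 2 genes with the smallest adjusted p per contrast. Alternatives were library totals or DESeq2's size factors as scaling; no filter, or 1 CPM in 5 libraries plus 100 counts; DESeq2 1.42.0 or limma voom (limma 3.58.1) as the tool; a fit of the contrast's own groups; a replicate block; length offsets, also with genomic span or the block; and leaving out each library. The edgeR fits with and without length offsets were also run on simulated data, and the outcome is not reported here or used as support. Promoter coordinates are in GRCm38.p6 and were not converted.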

Additional observations from a re-analysis of the deposited data

Results flagged for a closer look

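Of 116 groups of 5 libraries (29 genes in 4 groups), 8 held a library whose gap to its nearest neighbour exceeded 0.71 of the range, where chance gives about 1 in 20, or 5.8. Low libraries were DMSO replicate 5 for Acat2 (14.01 CPM, the others 15.2 to 15.6) and DSHN replicate 3 for Srebf2 (138.9 CPM, the others 151.7 to 156.7). High libraries were combination replicate 4 for Fdft1 (44.4 CPM, the others 39.8 to 40.9), DMSO replicate 1 (61.53 CPM, the others 57.0 to 58.1) and combination replicate 5 (60.47 CPM, the others 55.5 to 56.8) for Sqle, DMSO replicate 3 for Nsdhl (23.29 CPM, the others 21.7 to 22.03), GW3965 replicate 4 for Hsd17b7 (25.68 CPM, the others 19.6 to 21.2) and GW3965 replicate 1 for Srebf2 (196.9 CPM, the others 179.5 to 184.5). Without GW3965 replicate 4, Hsd17b7 was called in the interaction and in the combination against DSHN, as it also was without some other libraries.

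The effect of DSHN differed between cultures with and without GW3965, by edgeR's interaction test, for 17 of the 29 genes. That is 58.6%, near the 50.2% called among all tested genes. The DSHN effect was higher with GW3965 for Acat2 (0.32), Tmem97 (0.27), Fdft1 (0.23), Cyp51 (0.23), Fdps (0.17), Sc5d (0.14) and Msmo1 (0.13). It was lower for Soat1 (-0.53), Mbtps1 (-0.43), Mbtps2 (-0.41), Lss (-0.37), Tm7sf2 (-0.36), Scap (-0.34), Insig1 (-0.27), Nsdhl (-0.22), Dhcr7 (-0.21) and Srebf2 (-0.15). The combination libraries that enter this test also carry the length trend and the higher mitochondrial share, and 6 of these 17 calls (Acat2, Tmem97, Fdps, Msmo1, Dhcr7 and Srebf2) were lost with the length correction.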

How the results depend on the processing

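The count of genes called in either direction stayed within 1.5 times its value in each of the 6 comparisons under all alternatives. Counts by direction moved further in 4 cases: with total counts only, 1 gene was lower with GW3965 (0 otherwise) and 11 were higher in the interaction (7 otherwise), with no filter 4 were higher in the interaction, and with length and span offsets 5 were higher in the combination against GW3965 (9 otherwise). Over all genes, total counts only gave 2267 higher and 4000 lower with GW3965, against 3136 and 3058.

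Among values called before or after a change of setting, signs turned only with length offsets. In the combination against GW3965, Fdps had -0.06 with length offsets, -0.08 with length and span and -0.06 with length and block; Ebp had -0.04, -0.07 and -0.04 and Tmem97 -0.02, -0.04 and -0.01. Ggps1 had 0.16 with length offsets and 0.16 with the block added, and Srebf2 0.02 with length and span. In the interaction Fdps had -0.03, -0.05 and -0.03 and Srebf2 0.02 with length and span.

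Leaving out 1 library gave 4 to 6 called genes for DSHN (2 to 3 higher, 2 to 3 lower), 22 to 24 for GW3965 (0 lower), 27 to 28 for the combination against DMSO (23 to 24 higher, 3 to 4 lower), 16 to 20 against GW3965 (7 to 11 higher, 8 to 11 lower), 26 to 27 against DSHN (23 to 24 higher, 3 lower) and 14 to 20 for the interaction (5 to 10 higher, 9 to 11 lower). Of 174 results for single genes, 24 changed call without some library. Among values called with or without that library, 0 turned sign, and sign changes of uncalled values were not counted.

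Replicate numbers are shared by the groups, but deviations of same-numbered libraries had a median correlation of 0.04, with 10 of 30 pairs over 0.1, against 19 of 120 pairs of different numbers. No label ties a number to an animal or day, so the main fit did not take the numbers as pairs. Yet 13 of 20 libraries correlated best with their own number. Libraries of the same number may therefore share something that the main fit leaves out. With the replicate block the counts were 5 for DSHN, 23 for GW3965, 28 for the combination against DMSO, 19 against GW3965, 27 against DSHN and 16 for the interaction. Calls gained were Cyp51 with DSHN (adjusted p = 0.0464) and Hsd17b7 against DSHN (0.0266) and in the interaction (0.0221), and calls lost were Msmo1 (0.0514) and Sc5d (0.0601) in the interaction. With length offsets and the block together, Soat1 was called against DSHN at 0.11 (adjusted p = 0.0262). Among genes at few CPM, Tm7sf2 and Mvd had SEs of 0.08 to 0.14, which limits the differences that can be seen in them.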
